A study of Mus musculus with 2 samples.

Results

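The tags described here are the abundant short sequences of 2 mouse spleen small RNA libraries that no annotated transcript accounted for. A tag is 1 distinct sequence with its number of reads. Members were chosen by their reads and by their lack of a match: a length of 18 to 30 nt, 500 or more reads in both libraries together, no identical sense match to any GENCODE M21 transcript, and no match to a miRNA hairpin after up to 3 nt had been trimmed from the 3' end. Of 2002 tags with the same length and reads, 764 met the rule, and these fell into 462 groups that share their first 18 bases. At the threshold, the last member had 84 reads in Ia_high and 416 in Ia_low, and the next tag outside had 372 and 127.

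Both libraries came from spleen cells of C57BL/6J mice. The cells had been captured with CD11c beads and sorted by their Ia, the MHC class II molecule of the mouse, to a stated purity over 95%. CD11c+Ia_high cells gave 1 library of 16388303 reads and CD11c+Ia_low cells 1 library of 13739811 reads, and the labels call both populations dendritic cells. The animals had no stated treatment, and neither age nor the number of pooled animals was in the labels. With 1 library per population there was no replicate check, so no p-value is given, and every difference is one between these 2 libraries. In the mRNA fragments of the same libraries dendritic cell markers were present in both. Ratios are Ia_low over Ia_high, scaled to all such fragments of a library. Itgax (322 and 79 distinct fragments, ratio 0.593) and Cd74 (1371 and 441, ratio 0.778) did not reach 2-fold. H2-Aa (972 and 189, ratio 0.470), H2-Ab1 (922 and 185, ratio 0.485) and Flt3 (163 and 6, ratio 0.0890) were at least 2-fold lower in Ia_low. Csf1r (200 and 275, ratio 3.32) and Cx3cr1 (40 and 84, ratio 5.08), genes of monocytes and macrophages that some dendritic cells also express, were higher in Ia_low. The T cell genes Cd3e and Cd3g and the erythroid Hba-a1 were at 0 in both. The other 6 of these 9 markers of T, B, NK, red and neutrophil cells had at most 10 fragments in a library, and the part of cell makeup in the results was not tested. Fewer cells of a type and less RNA per cell cannot be told apart in such sorted bulk samples.

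Cells hold large amounts of tRNA and rRNA, and pieces of these RNAs enter small RNA libraries beside the miRNAs. A tRNA is trimmed at both ends after transcription, and the nucleotidyltransferase Trnt1 adds the bases CCA to the 3' end, where the amino acid is later attached. The CCA is not encoded in mouse tRNA genes, so a 3' fragment of a mature tRNA need not match any transcript read from the genome. Fragments of tRNA are usually named by the end they keep: 3' fragments begin in or near the T loop and end in CCA, and 5' fragments begin at the first base of the mature tRNA. The T loop carries modified bases in many tRNAs, among them a methylated adenosine that the Trmt6 and Trmt61a enzyme makes and that disturbs reverse transcription. In ribosomal RNA, 5S is transcribed apart from the large precursor that gives the 18S, 5.8S and 28S molecules.

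The first sequences shown are abundant tags that end in CCA. Each is a tag as deposited, 5' to 3', with a terminal CCA in capitals. The first is the most abundant member. The next 3 match RefSeq tRNA genes of GRCm38.p6 up to the last base of the gene and then go on with CCA. Most other tRNA genes could not be read, so whether a tag matches the named gene alone was not tested.
Largest tag: tcgatccccggcatctccaCCA
n-TAagc16, 3' end: tcaatccccggcacctccaCCA
n-TVcac9, 3' end: tcgaaaccgggcggaaacaCCA
n-TLaag4, 3' end: tcgaatcccaccgctgccaCCA
The largest tag, for which no gene was found, differs from the n-TAagc16 tag at 2 positions, A3G and C14T, counted from the 5' end with the base of the n-TAagc16 tag first.

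The gene n-TVcac9, an annotated valine tRNA (chromosome 13, 23446142 to 23446214 in GRCm38, as all coordinates here; minus strand by the match of the tags) is the single gene with a member at each end among the 4 tRNA genes whose whole sequence could be read. Its 73 bases are shown with the letters covered by the main 5' tag (bases 1 to 23) and by the main 3' tag (bases 55 to 73, without the CCA) in capitals.
n-TVcac9: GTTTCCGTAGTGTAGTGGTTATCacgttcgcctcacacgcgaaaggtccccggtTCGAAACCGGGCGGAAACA

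A further set of tags runs along, or just past, an annotated RNA. Capitals mark the bases that had to be trimmed before the tag matched.
Rn5s, 3' end: ggaataccgggtgctgtaggctTT
Gm22192, 3' end: gggagatgaagaggacagtgactgagagaC
Snord104, 3' end: ccgggtgatgcgaatcgtaatctgagcCGA
Snord49a, 5' end: tgctgtgatgagatgactaagtaggaG
Snora41: ggaggattatgtgtgacagacT
mt-Tv, 3' end: tcatgaccaatgaacactctgaCC

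Tags with no match made the larger part of the members, and 4 that recur below are shown by the rank of their group.
Group 7: cgcgacctcagatcagacgtggc
Group 8: gactcttagcggtggatcactcggc
Group 10: ggggctacgcctgtctgagcgtcgct
Group 44: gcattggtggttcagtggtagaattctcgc
No sequence of the large rRNA precursor or of the tRNA of group 44 was used for matching. By general knowledge of these RNAs, and not by a match made here, the letters of group 8 are those of the start of 5.8S rRNA, those of group 10 of its end, those of group 7 of the start of 28S rRNA, and those of group 44 of the start of a glycine tRNA.

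Members held a similar share of all reads in both libraries and differed in both directions within it. They took 1408159 reads in Ia_high, 8.59% of the library (exact binomial 95% interval 8.579% to 8.606%), and 1298757 reads in Ia_low, 9.45% (9.437% to 9.468%). A tag was called higher or lower when its reads per 1000000 of all reads (rpm) differed at least 2-fold and 1 lay outside the 95% interval of the ratio, computed exactly by the Clopper-Pearson method. Because PCR reads without molecular identifiers are not independent molecules, the counts were first divided by how often a tag had most commonly been read, 4 times in Ia_high and 9 in Ia_low, and the intervals still cover counting error only. By this rule 205 members (26.8%) were higher in Ia_low and 180 (23.6%) were lower, beside 19% higher and 30.5% lower of all 2002 tags. Of the groups, 119 of 462 (25.8%) were higher and 118 (25.5%) lower, beside 22.7% and 28% of the 869 groups of all such tags. The median log2 ratio (Ia_low over Ia_high) was 0.05 over the members and -0.27 over all 2002 tags. These counts, and the ratio of 1.10 between the shares of the 2 libraries, rest on the scaling. Per read that matched a miRNA hairpin, every log2 ratio was 0.87 higher, and 359 members were higher and 100 lower. Ratios given here between 0.547 and 1 turn above 1 on that scale, where each is 1.83 times as high. Reads of 31 to 44 nt count in the library totals: reads of 18 to 30 nt were 98.4% of Ia_high and 85.7% of Ia_low, so scaled to these alone every ratio is 1.15 times as high, with 234 members higher and 158 lower.

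**Figure D1:**
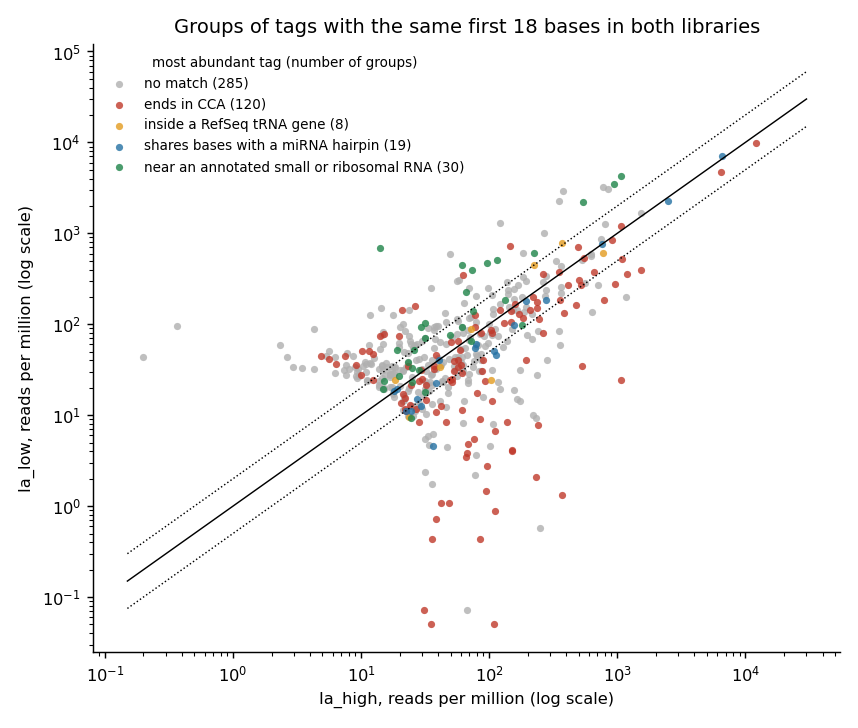
Each point is 1 of the 462 groups, placed by its reads per 1000000 in Ia_high (horizontal) and Ia_low (vertical), both on log axes, and coloured by what its most abundant tag matched; the solid line is equality, the dotted lines are 2-fold, and groups with 0 reads in a library are drawn at the lowest position of that axis. Of the 30 groups near an annotated small or ribosomal RNA 14 were called higher and 1 lower, and of the 120 CCA groups 16 and 51. Of the 869 groups of all abundant tags 22.7% were higher and 28% lower.

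Few groups held most of the reads. The 3 largest groups had 26.2% and the 12 largest 44.5% of all member reads, while 322 groups consisted of 1 tag. Joined wherever 2 members shared 16 bases, the tags formed 172 stretches, of which 78 were single tags and 50 had 5 or more tags and 86.2% of the reads. Of those 50, the reads of 7 had a common first base (80% or more of the reads at 1 position), 13 a common last base, 7 both and 23 neither. Of those with a common last base, 9 ended in CCA and 11 did not.

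Among members with a recognised feature, tags that ended in CCA were the largest set. For most of them no gene sequence was at hand, and a CCA end by itself does not place a tag in a mouse tRNA. They numbered 125 of the 764 members, against 15 of the other 1238 abundant tags (1.21%). A CCA added after transcription need not match any transcript, so the rule itself favours such tags among the members. The contrast is a description only. The 125 took 663746 reads in Ia_high (4.05% of the library) and 378639 in Ia_low (2.76%). Of these tags 18 were higher and 54 lower in Ia_low, beside 19% and 30.5% of all 2002 abundant tags. The median log2 ratio of the 125 was -0.75 and their summed ratio 0.680 (interval 0.673 to 0.688). Per hairpin read the summed ratio was 1.24, so its direction depends on the scaling. In all, 80 of the 125 had exactly 22 nt, and 78 of these 80 began with TC. The group of the largest tag, group 1, had 197880 reads in Ia_high and 136257 in Ia_low (12070 and 9917 rpm, ratio 0.821, 0.807 to 0.836), nearly all in that 1 tag of 22 nt (99.5%). Group 3, which matches the alanine tRNA n-TAagc16 (chromosome 13, 21222586 to 21222657), had 105896 and 64971 reads (6462 and 4729 rpm, ratio 0.732, 0.713 to 0.751). Neither of these 2 groups reached 2-fold, and both ratios lie in the range that turns above 1 per hairpin read. For the 22 nt tag of n-TVcac9 the reads were 15680 and 3803 (957 and 277 rpm), a ratio of 0.289 (0.261 to 0.320), whereas for the 22 nt tag of the leucine tRNA n-TLaag4 (chromosome 7, 120917517 to 120917598) they were 5770 and 5214, a ratio of 1.08 (0.977 to 1.19).

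Shorter tags with the same CCA ends had far lower ratios than the tags of 22 nt. The 125 tags fell into 50 families with the same last 14 bases. Over all tags of 18 to 30 nt with these endings, those of 18 and 19 nt had 115782 reads in Ia_high and 10212 in Ia_low (ratio 0.105), and those of 22 nt had 557011 and 360903 (ratio 0.773). Per hairpin read these ratios were 0.192 and 1.41. In Ia_high 16.5% of the families' reads had 18 or 19 nt and 79.3% had 22 nt, and in Ia_low the shares were 2.58% and 91.2%. Of the 28 members of 18 and 19 nt with a CCA end, 27 were lower in Ia_low and 0 higher. Short members with any end were mostly lower too. At 18 nt 23 of 34 were lower and 6 higher, and at 19 nt 37 of 53 and 4. Members were chosen by their summed reads, which for short CCA tags lay mostly in Ia_high, so the selection tilts the count of 27 toward lower. The same count over all abundant tags of 18 and 19 nt was not made. Among the 27 families with 100 or more reads of each length class in Ia_high and 10 or more of 22 nt in Ia_low, 26 had a lower ratio for 18 and 19 nt than for 22 nt. Families entered by their short reads in Ia_high alone, which tilts this count toward low ratios, so it is a description only. Length also moved with the library as a whole: all reads of 18 and 19 nt had a ratio of 0.276 and all reads of 22 nt of 0.654, and the part of gel selection in this was not tested. The ratio of 22 nt was thus 7.35 times that of 18 and 19 nt in the CCA families and 2.37 times in all reads, on either scale.

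**Figure D2:**
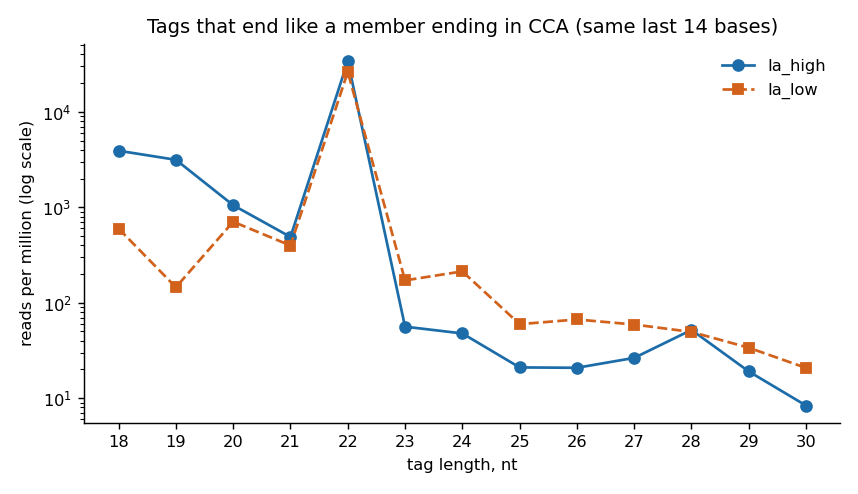
Reads per 1000000 (vertical, log axis) of tags that share their last 14 bases with a member ending in CCA, by tag length in nt (horizontal), for Ia_high (circles) and Ia_low (squares). At 19 nt Ia_high stands at 3148 and Ia_low at 145, and at 22 nt at 33990 and 26270.

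Single families showed the same split. In the family of the largest tag, 18 and 19 nt made 16.8% of the reads in Ia_high and 3.54% in Ia_low, and in that of n-TVcac9 they made 33.7% and 3.45%. The family of n-TLaag4 went from 57.3% to 7.15%, so that its tags of 22 nt had a ratio of 1.11 and those of 18 and 19 nt of 0.0633. Group 29, the 19 nt tag at the end of the largest tag's stretch, had 17551 reads in Ia_high and 332 in Ia_low (1071 and 24.2 rpm, ratio 0.0226, 0.0159 to 0.0312). Group 37, a CCA tag of 20 nt from another family, had 8219 and 4179 reads (ratio 0.607) and was not called.

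The lowest ratios of all groups with 1000 or more reads were mostly of this kind. Group 74, the 18 nt end of n-TVcac9, had 6109 reads in Ia_high and 18 in Ia_low (373 and 1.31 rpm, ratio 0.00351, 0.000425 to 0.0127). Groups 117 and 245, a pair of 18 nt tags from 1 stretch, had 3829 and 29 reads and 1382 and 6 reads, and group 199, of 19 nt, had 1817 and 12. Group 205, of 18 nt, had 1779 reads and 0, a ratio of 0 with an interval of 0 to 0.0223. An exception in length was group 222, a CCA tag of 22 nt with 1545 and 20 reads (ratio 0.0154, 0.00168 to 0.0506). The other 2 of the 8 did not end in CCA: group 110, of 18 and 19 nt, had 4124 and 8 reads, and group 288, of 19 nt, had 1100 and 1 (ratio 0.00108, interval 0 to 0.0362). Both groups belong to 1 stretch, and with all tags of the same first 18 bases counted, without a minimum of reads, group 288 had a ratio of 0.120, group 110 of 0.0115 and group 74 of 0.00902.

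The fourth base of the 22 nt tags varied strongly between families and less between the libraries. Tags of 22 nt that began with TC and ended in CCA were pooled into families alike in all bases but the fourth, which lies in the T loop, and the A was taken as the reference. In 33 families with 300 or more reads in each library, the share of reads without that A ran from 0% to 92.6% in Ia_high and from 0% to 86.6% in Ia_low. Across these 33 families the shares of both libraries had a Pearson correlation of 0.98, a description only, since the families share the library preparation. The family of the largest tag had 1.62% without A in Ia_high and 1.52% in Ia_low, that of n-TAagc16 had 0.513% and 0.395%, that of n-TVcac9 10.96% and 12.5%, and that of n-TLaag4 25.01% and 26.9%.

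Most changes were to T (A4T), and some families had mostly G. T was the most common change in 17 of the 24 families with 1% or more in either library in Ia_high, where 1 family had no change at all, and in 18 in Ia_low. In the sixth family by reads 92.2% of the Ia_high reads and 86.1% of the Ia_low reads had T, while in the fifteenth 70.8% and 71.3% had G (A4G). More than 50% of the reads lacked the A in 6 families in Ia_high and in 7 in Ia_low. Among the 24 families the share was lower in Ia_low in 9 and higher in 15, with a median difference of 1.19 percentage points, and the exact 95% intervals, computed on reads as if each were a molecule, overlapped in 7. With counts divided by 4 and 9 as above they overlapped in 17. The largest difference was in the sixteenth family, at 79.1% of 8070 reads (interval on undivided reads 78.2% to 79.95%) in Ia_high and 60.8% of 3010 reads (59.1% to 62.6%) in Ia_low.

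Families with almost no change at the fourth base had other library ratios than the rest. This split at 1% was made after the values had been seen. The 9 families under 1% in both libraries had ratios of 0.730 to 6.96 with a median of 3.76, and 5 of them were called higher in Ia_low and 0 lower. The other 24 had ratios of 0.229 to 1.36 with a median of 0.669, and 0 were called higher and 7 lower. Of the 9, 1 is the family of n-TAagc16, and for the other 8 no mouse gene was found among the sequences used here. Whether these 8 come from mouse cells at all was not tested, so their ratios may not describe mouse RNA, and the same holds for other CCA tags without a gene. The highest ratio belonged to a family with 342 reads in Ia_high and 1996 in Ia_low (6.96, 5.38 to 8.99), of which 0 reads in either library lacked the A.

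**Figure D3:**
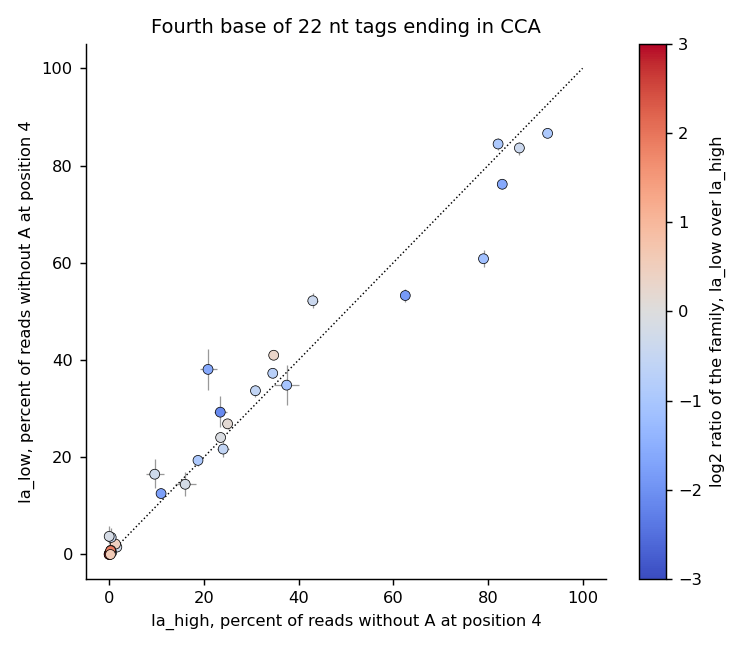
Percent of reads without A at position 4 in Ia_high (horizontal) and Ia_low (vertical) for 33 families of 22 nt tags ending in CCA, with exact binomial 95% intervals on undivided reads as bars and the log2 library ratio of the family as colour; the dotted line is equality. Points follow the line from 0% to 92.6%, and the families with the highest ratios lie in the lower left corner.

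Fragments that begin at or near the 5' end of a tRNA could be followed in the 2 genes n-TVcac9 and n-THgtg7. Sequence was at hand for 10 of 408 nuclear tRNA genes, those that reach into the RefSeq promoter window of another gene. Of the 10, 4 were matched by members, 31 tags in all. A gene name here stands for a match, and matches to the genes without sequence could not be looked for. From n-TVcac9, the 23 nt tag that begins at the first base had 6073 reads in Ia_high and 10822 in Ia_low (371 and 788 rpm, ratio 2.12, 1.97 to 2.29), against the ratio of 0.289 of the 22 nt tag at the other end of the same gene. A 30 nt tag from base 4 to base 33 had 1188 and 1205 reads (ratio 1.21, 0.980 to 1.49). Group 179, of 19 and 28 nt and also inside this gene, had 1692 and 337 reads (ratio 0.238, 0.163 to 0.329) and was called lower. The main tags of both ends thus stood on opposite sides of equality, per hairpin read as well. Tags further inside the gene lay on either side of 1. Whether the main tags of both ends come from the same tRNA gene was not tested.

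In the histidine tRNA n-THgtg7 (chromosome 3, 96452495 to 96452566) the ratio varied with both the first and the last base. The tag of 29 nt from base 2 to base 30 had 9936 reads in Ia_high and 5636 in Ia_low (ratio 0.677, 0.619 to 0.739). With the first base as well, the tag of 30 nt from base 1 to base 30 had 465 and 2071 reads (ratio 5.31, 4.24 to 6.71). Both end at the same base but differ in length by 1 nt. All reads of the libraries had ratios of 1.63 at 29 nt and 2.23 at 30 nt. The 30 nt tag was the highest of the 7 members from base 1, where the tag of 29 nt had 1216 and 1303 reads (ratio 1.28) and that of 24 nt had the lowest ratio, 0.879. Likewise the 30 nt tag from base 2, with 349 and 898 reads (ratio 3.07), was the highest of the 6 there. As groups, the 7 tags from base 1 had 3680 and 6134 reads (ratio 1.99, 1.80 to 2.20) and the 6 from base 2 had 12705 and 8402 (ratio 0.789, 0.733 to 0.849), and neither was called.
n-THgtg7, from base 2: ccgtgatcgtatagtggttagtactctgc
n-THgtg7, from base 1: gccgtgatcgtatagtggttagtactctgc
Over its 15 members the gene had 17453 and 15130 reads, a ratio of 1.03. Group 44, with the letters of a glycine tRNA start, had 3007 and 8400 reads (ratio 3.33, 3.02 to 3.67), most of them in its 30 nt tag. Group 255, a pair of tags of 29 and 30 nt, had 6 and 1305 reads and the highest ratio of the groups with 1000 or more reads (259, 52.9 to 1622), but all tags with its first 18 bases together had a ratio of 6.10.

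5S rRNA ends were the most abundant members called higher in Ia_low. The main tags of groups 4, 6 and 11 match 5S rRNA genes up to the annotated last base and run 2 bases beyond it. Rn5s (chromosome 8, 123598158 to 123598276, minus strand) is 1 of 56 annotated genes with these letters. A protein-coding transcript of Tmem38b holds the same letters 1 base further. Group 4 had 17404 reads in Ia_high and 59410 in Ia_low (1062 and 4324 rpm, ratio 4.07, 3.92 to 4.23). Group 6 had 15539 and 47521 reads (ratio 3.65, 3.50 to 3.803), and group 11 had 8783 and 30395 (ratio 4.13, 3.91 to 4.36).

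The 5S tags shared their end and differed in their start. In their stretch of 22 tags, 97.4% of the reads ended at 1 position and 11 first bases occurred, the most common with 34.2% of the reads. Over all 23 tags of 5S genes the reads were 59462 and 167510, a ratio of 3.36 (3.29 to 3.43). The direction differed by length: tags of 18 to 20 nt had a ratio of 0.593 (above 1 per hairpin read), those of 21 to 25 nt 3.75 and those of 26 to 30 nt 4.57. T was the last base of 81.7% of the reads in Ia_high and 89.0% in Ia_low, and A of the rest. The 24 nt tag shown for Rn5s had 15476 and 53821 reads, and the tag 2 bases shorter that stops at the annotated end, which is not a member, had 3096 and 6889 (ratio 2.65).

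**Figure D4:**
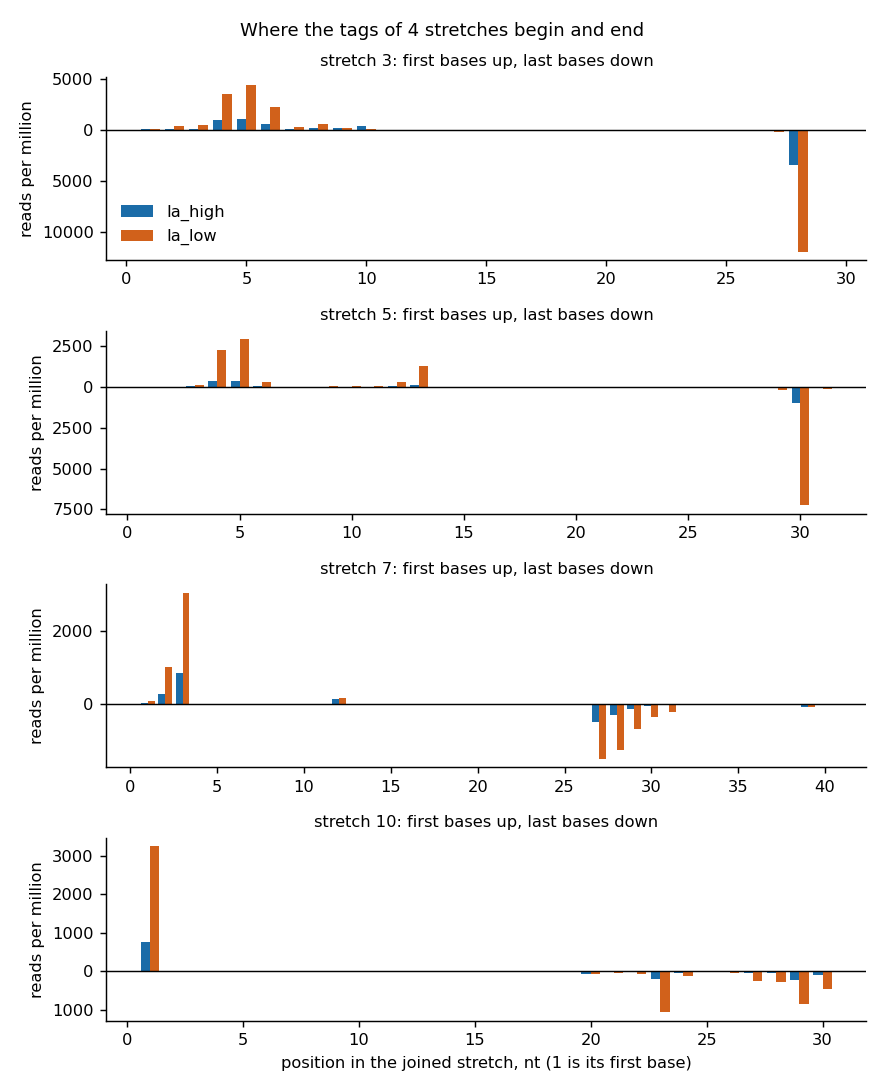
Reads per 1000000 that begin (upward bars) and end (downward bars) at each position of 4 joined stretches, in Ia_high and Ia_low, with the position in nt from the first base of the stretch on the horizontal axis. Stretches 3 (5S rRNA) and 5 (group 10) have many first bases and 1 main last base, stretch 10 (group 7) has 1 first base and 11 last bases, and stretch 7 (group 8) has 70.3% of its reads at 1 first base.

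Tags with the letters of 5.8S and 28S rRNA ends were higher in Ia_low as well. Group 10, shown above, had 6163 reads in Ia_high and 40458 in Ia_low (376 and 2945 rpm, ratio 7.83, 7.39 to 8.30), and group 12, which begins 1 base earlier, had 5714 and 30899 (ratio 6.45, 6.06 to 6.87). Their stretch of 16 tags, stretch 5, had the highest ratio of the 50 larger stretches, 6.85 (6.62 to 7.09), and 95.6% of its reads shared the last base. Group 23, of 18 and 19 nt in the same stretch, had 1984 and 17666 reads (ratio 10.6, 9.62 to 11.7), so short length did not go with a low ratio there. At the other end of that RNA, group 8 had 13969 and 42028 reads (ratio 3.59, 3.43 to 3.75), and the 17 tags of its stretch, stretch 7, had 4 first bases and 10 last bases. Group 7 had 12652 and 44612 reads (772 and 3247 rpm, ratio 4.21, 4.02 to 4.40). All 11 of its tags began at the same base and each ended at another, with 29 nt the most common length in Ia_high and 23 nt in Ia_low.

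Other tags without a match went both ways. Group 9, of 29 and 30 nt, had 25014 and 22845 reads (ratio 1.09, 1.04 to 1.14). Group 55 had 805 and 8101 reads (ratio 12.0, 10.3 to 14.1), most of them in 1 tag of 20 nt, while its stretch of 37 tags, stretch 8, had a ratio of 1.34. Groups 163 (18 nt, 234 and 2059 reads, ratio 10.5), 187 (28 nt, 193 and 1737, ratio 10.7) and 259 (30 nt, 70 and 1221, ratio 20.8) were among the 8 highest ratios and stood alone as single tags. The lowest of the larger stretches was stretch 13, with 9 tags, 37607 reads in Ia_high and 4892 in Ia_low (ratio 0.155, 0.142 to 0.169) and 97.8% of the reads at 1 last base. A set of 503 members had neither a CCA end nor a match to a tRNA gene, hairpin, or small or ribosomal RNA. Of these, 155 were higher and 109 lower, beside 19% and 30.5% of all 2002 tags, and the summed ratio was 1.38. The 503 include tags of stretches 5, 7 and 10, so the counts and the summed ratio do not describe the remaining tags alone. Those stretches had 17933 and 102984, 20576 and 59059, and 12652 and 44612 reads, beside 468840 and 542053 in the set. A match to a small or ribosomal RNA needed 18 bases left after trimming, so the 5S group 67 (ratio 0.242, called lower) counts here.

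Small nucleolar RNAs guide the modification of rRNA, and several members were their fragments with extra or changed last bases. Group 49, which runs 1 base past the end of the snoRNA Gm22192 (chromosome 2, 32221970 to 32222054, plus strand) and matches 3 annotated genes, had 232 reads in Ia_high and 9370 in Ia_low, a ratio of 48.2 (37.0 to 63.9), but 6.87 with all tags of the same first 18 bases. Its 30 nt tag had 207 and 8541 reads, and the 29 nt tag that stops at the annotated end had 1014 and 2431 (ratio 2.86). The tag of Snord104 (chromosome 11, 106500993 to 106501062), 3 bases past the end, had 1014 and 6180 reads (ratio 7.27, 6.28 to 8.42), and without these bases 20486 and 22830 (ratio 1.33). For Snord49a (chromosome 11, 62603450 to 62603521), with a G in place of the annotated base, the ratio was 3.41, close to the 3.27 of the unchanged tag. Snora41 (chromosome 1, 63179004 to 63179135) with a last T had 2979 and 1360 reads (ratio 0.544, 0.454 to 0.649). In the mitochondrial valine tRNA mt-Tv the ratio differed with the 3' end. The 24 nt tag shown, which ends in CC beyond the gene, had 683 and 485 reads (ratio 0.847, 0.612 to 1.16), and the tag of 25 nt with the same start and a full CCA had 124 and 571 (ratio 5.49, 3.49 to 8.68). All 5 mt-Tv members with CCA were called higher, at ratios of 2.95 to 6.01, and the 4 with CC, at 0.847 to 1.501, were not called. Together the 9 tags had 2470 and 4716 reads (ratio 2.28, 2.02 to 2.56). Of the 46 members near an annotated small or ribosomal RNA, with 18 or more bases left after trimming, 27 were higher and 1 lower. Of all 2002 abundant tags 19% were higher and 30.5% lower. The 46 hold most 5S tags but not the shortest. Group 67, a 5S group of 19 and 20 nt (5743 and 1164 reads, ratio 0.242), was called lower and counted as without a match.

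miRNAs are short RNAs cut from hairpins by Drosha and Dicer1, and 69 members lay next to a hairpin without matching it within the rule. Of the 69, 1 was higher and 13 were lower, beside 19% and 30.5% of all 2002 abundant tags. The summed ratio of the 69 was 0.990 (0.972 to 1.01). Most of the reads came from 1 stretch, which includes groups 2 and 5. Group 2 had 107153 reads in Ia_high and 97848 in Ia_low (6538 and 7121 rpm, ratio 1.09, 1.06 to 1.11) and group 5 had 41158 and 31189 (ratio 0.904, 0.869 to 0.939). The most abundant tag shares 21 bases, shown in its sequence from base 2 to base 22, with the hairpin of Mir5099 (chromosome 12, 36816205 to 36816278, plus strand).
Group 2: tcttagatcgatgtggtgctccgga
Identical matches to the Mir5099 hairpin had 52 reads in Ia_high and 11 in Ia_low, against 152470 and 131498 in the 29 members.

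Further members were variants of abundant miRNAs. Group 20 held 17 tags of 26 and 27 nt that continue miR-92a-3p with other bases than its hairpin. It had 12499 reads in Ia_high and 10596 in Ia_low (ratio 1.01, 0.944 to 1.08). Identical matches to the Mir92 hairpins had 118356 and 60903 (ratio 0.614). All tags with the shared first bases of group 20, its members included, had 759892 and 581261 reads. Their ratio of 0.912 lay nearer to that of group 20 than to that of the identical matches. The 8 members of Mir181a were 1 substitution from the hairpin, and the most abundant had T19G, counted from the 5' end of miR-181a-5p, with T for U.
miR-181a-5p, seed in capitals: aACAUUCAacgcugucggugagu
Member with T19G: aacattcaacgctgtcggggag
That tag had 1575 and 757 reads, and the 8 members together had 6406 and 3161 (ratio 0.589), beside 1225179 and 369946 reads (ratio 0.360) that matched the Mir181a hairpins. In let-7f the 5 members had a ratio of 0.484 (0.398 to 0.579), beside 0.495 for the hairpin itself.

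Across all members the library ratio followed length. Of the 322 members of 25 to 30 nt, 126 were higher in Ia_low and 28 lower, and of the 355 of 20 to 24 nt, 69 were higher and 92 lower. The same counts over all abundant tags of these lengths were not made, so these do not set the members apart. The median log2 ratio was -3.38 at 18 nt, -0.47 at 22 nt and 1.40 at 30 nt. All reads of the libraries moved with length as well, with ratios of 0.401 at 18 nt, 0.654 at 22 nt and 2.23 at 30 nt. Members that did not end in CCA had higher ratios than all reads at each length from 18 to 29 nt, for instance 2.16 against 1.15 at 24 nt, and a lower one at 30 nt (1.96). All reads include those that match a miRNA hairpin, which the rule leaves out of the members, so this contrast is a description only. Members began with G in 23.6% of tags, against 12.2% of the other abundant tags, and with T in 34.2% against 44.99%. The other abundant tags are those the rule left out, miRNA hairpin matches among them, so the first bases are a description too.

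**Figure D5:**
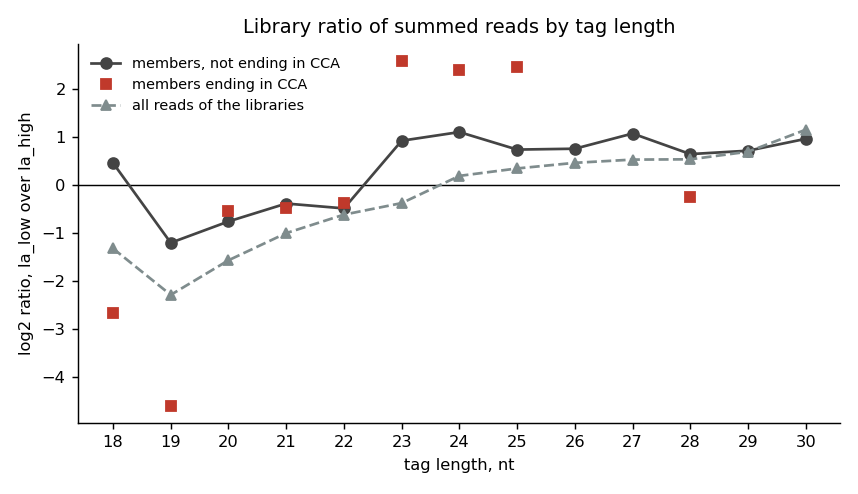
Log2 ratio of summed reads per 1000000, Ia_low over Ia_high (vertical), by tag length in nt (horizontal), for members that do not end in CCA (circles), members that end in CCA (squares) and all reads of the libraries (triangles). CCA members lie at the bottom at 18 and 19 nt, with ratios of 0.157 and 0.0414, and members without CCA lie above the line of all reads from 18 to 29 nt.

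Genes that make and process tRNA were covered thinly by mRNA fragments. Of 36 listed genes, 20 had 10 or more distinct fragments in both libraries together, and 1 was higher in Ia_low and 0 lower, beside 6.35% higher and 8.51% lower of 6934 genes. Slfn2, a member of the Schlafen family, whose relatives bind tRNA, was the higher one, with 53 fragments in Ia_high and 59 in Ia_low (165 and 445 per 1000000 mRNA fragments, ratio 2.69, 1.83 to 3.98). Trnt1 had 7 and 5 fragments, the tRNA 3' processing nuclease Elac2 13 and 1 (ratio 0.186, 0.00438 to 1.24), and the methyltransferase subunit Trmt6 10 and 1 (ratio 0.242, 0.00557 to 1.70). Dicer1 had 42 and 18 (ratio 1.04, 0.561 to 1.84), and Ago2, which binds small RNAs, 147 and 43 (ratio 0.707, 0.491 to 0.999). Rnh1, the inhibitor of angiogenin-type ribonucleases, had 55 and 37 (ratio 1.63, 1.04 to 2.51). The median log2 ratio was 0.08 over the 20 genes and -0.14 over all 6934.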

How the data were processed

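Per the labels' protocols, RNA shorter than 30 bases was cut from a gel and ligated to adaptors, and after 12 cycles of amplification products of about 90 bp went onto a Solexa sequencer. Adaptor trimming, read filters and genome build are left unstated there. The authors' deposited values are unscaled counts of reads per distinct sequence, 1 file per library, with its length beside it. Tags ran to 44 nt. Precision was set by the reads per tag. Tags read more than 1 time had most often been read 4 times in Ia_high and 9 in Ia_low.

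Tags were matched to GENCODE M21 transcripts (GRCm38), of which 1174 name a miRNA hairpin, and to RefSeq sequence in 300-base promoter windows of GRCm38.p6, which reach 10 tRNA genes. No genome sequence was used, so the planned match to the genome and search for tRNA-like loci were left out. Each member took the first class that held: annotated transcript after trimming 1 to 3 nt at the 3' end (66 tags), 1 substitution from a miRNA hairpin (45), 1 substitution from another annotated transcript (19), or none of these (634). In the text, members were also sorted by a CCA end, a tRNA gene, a hairpin that shares 18 bases, or a small or ribosomal RNA, a sorting chosen after the values were seen. For the last of these, 18 or more bases had to be left after trimming. Counts were scaled to all reads of the library, and 0 reads stood at a floor of 3 times the most common reads per tag. mRNA was counted as distinct tags of 20 to 30 nt that matched 1 protein-coding gene. Named groups were the 12 with the most reads, the 8 highest and 8 lowest ratios among groups with 1000 or more reads, and the 2 largest of each class. Sequences were to be printed only for tags with a match; the largest tag and those of groups 7, 8, 10 and 44 lie outside that rule and, like group 44 itself and the stretches described, were chosen after their values were seen. The members and lists were chosen with earlier results of these data known. The calling rule was tested on simulated data. Alternatives covered scaling, fold, reads, lengths, grouping and matching. Python 3.11.15 with SciPy 1.17.1 and NumPy 2.4.6 was used, and figures were drawn with matplotlib 3.10.9.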

Additional observations from a re-analysis of the deposited data

Results flagged for a closer look

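Longer reads lay outside the lengths described. Tags of 31 to 44 nt that began with the first 18 bases of a member group had 96240 reads in Ia_high and 657871 in Ia_low, 5872 and 47880 reads per 1000000, a ratio of 8.15, so reads beyond the stated gel limit were present in both libraries. No member is among them, but they count in the totals to which reads were scaled. From the first base of n-TVcac9, tags of 31 to 44 nt had 1452 reads in Ia_high and 226987 in Ia_low, a ratio of 187. Of these the tag of 33 nt had 1232 and 204524 reads, where the 23 nt member with the same start had a ratio of 2.12.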

How the results depend on the processing

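No paired analysis was possible because each population has 1 library. Counts of members higher and lower in Ia_low moved by over 1.5 times with several settings. Scaled to miRNA hairpin reads they were 359 and 100 tags and 202 and 66 groups. With a fold of 4 they were 86 and 93 tags and 54 and 63 groups. With 1000 or more reads they were 104 and 105 tags of 402 and 62 and 77 groups, and with 500 or more reads in each library 55 and 26 tags and 32 and 19 groups, of fewer tags tested. Members of 20 to 24 nt alone gave 69 and 92 tags and 49 and 71 groups, and those of 25 to 30 nt 126 and 28 tags and 79 and 14 groups. Lower groups numbered 71 when grouped by the last 16 bases, and, in settings chosen after seeing the data, 67 without tags that end in CCA and 78 without tags of 18 and 19 nt. Members numbered 1822 with 200 or more reads, at 9.52% of the Ia_high and 10.7% of the Ia_low reads, and with 1000 or more reads they held 7.81% and 8.58%. A hairpin match without trimming gave 17.2% and 15.8%, leaving out tags 1 substitution from a hairpin 8.02% and 8.89%, and leaving out trimmed transcript matches 7.85% and 7.89%. The same analysis without each library in turn could not be run with 1 library per population. No ratio of a named group past 2-fold changed direction with hairpin scaling, with its most abundant tag alone or with all tags of its first 18 bases; groups 1, 3, 5 and 37, not called, went from below 1 to above 1 with hairpin scaling. Trimmed transcript matches fell from 66 to 56 tags when 18 or more bases had to be left, also chosen after seeing the data. Scaled to reads of 18 to 30 nt, likewise chosen after seeing the data, members higher and lower were 234 and 158 tags and 134 and 99 groups, within 1.5 times the counts above. Depth limits groups with few reads in a library, such as group 288 with 1 read in Ia_low and an interval of 0 to 0.0362.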
